A study of Mus musculus with 12 samples.

Results

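The genes described here belong to enzyme families that add or remove acetyl and methyl groups on histones, with the core partners of 1 methylating complex. Several act mainly on other substrates or have a disputed activity, as given with each gene, and the class counts include them. Members were taken by platform gene symbol from a list of 40 genes, with older Mll names read as Kmt2, and Mll2 read as both Kmt2b and Kmt2d, which share that older name. Probes carried the names of 38 of the 40 genes, 86 probes of 45281 in all, and the table names 19057 genes. Hdac1 and Suv39h1 had no probe under their names and were not analysed here. Probes detected (p-value under 0.05) on 6 or more of the 12 arrays were retained, which left 55 member probes for 36 genes among 20172 kept probes. Crebbp and Ehmt1 lost all their probes at this step.

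The samples were hippocampus of female C57BL/6J mice aged 12 weeks, measured on Illumina bead arrays with 1 array per sample. The EtOH group (6 arrays) came from pregnancies in which the dam could choose to drink 10% ethanol by volume between 0.5 and 8.5 days post-coitum, and the Control group (6 arrays) is labelled Control. The treatment text stands on every sample, so the groups were read from the titles. Litters are not told apart in the labels, so the p-values measure the spread between arrays, and animals of a group may share a dam. A number in the titles divides the arrays over what are read here as 2 chips of 6, with 4 EtOH and 2 Control arrays on chip 1 and 2 EtOH and 4 Control arrays on chip 2. Whole tissue was measured, so fewer cells of a type and less RNA per cell cannot be told apart.

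Acetyl groups placed on histone tails by acetyltransferases loosen chromatin and mark active genes, and deacetylases take them off. Methyl groups act by position: methylation of lysine 4 of histone H3 by the Kmt2 and Setd1a enzymes accompanies active genes, while that of lysine 9 by Setdb1, Suv39h1, Ehmt1 and Ehmt2 and of lysine 27 by Ezh1 and Ezh2 accompanies silencing. In hippocampal neurons these enzymes are known for their part in memory-related transcription, and alcohol has often been studied for effects on histone acetylation.

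The promoters of most members were rich in CG dinucleotides, a feature that the choice by name did not use. RefSeq promoters (build GRCm38.p6) were found for 33 of the 40 listed genes, Suv39h1 included, some with several starts, 41 promoters in all. In the 250 bases before the start, these held a median of 17 CG dinucleotides, against 10 for 21263 promoters of protein-coding genes. At least 10 of them stood in 82.9% of member promoters and in 50.1% of protein-coding promoters. The limit of 10 equals the median of protein-coding promoters, and promoters of genes detected on these arrays were not compared separately. CG reads the same on both strands and is the base pair step that DNA methylation acts on. Hdac9 had the fewest, with 0 in the poorer of its promoters, and Kmt2c the most, with 48. The sequences shown are the richest and the poorest with an entry among the genes whose array ranges are described, 2 per class, Sirt1 with 39 (minus strand, chr10:63339036-63339285) and Kat2b with 5 (plus strand, chr17:53583876-53584125), each 5′ to 3′ in the direction of the gene, with CG in capitals. Nothing in these arrays measures methylation or binding at these sites.
Sirt1 promoter: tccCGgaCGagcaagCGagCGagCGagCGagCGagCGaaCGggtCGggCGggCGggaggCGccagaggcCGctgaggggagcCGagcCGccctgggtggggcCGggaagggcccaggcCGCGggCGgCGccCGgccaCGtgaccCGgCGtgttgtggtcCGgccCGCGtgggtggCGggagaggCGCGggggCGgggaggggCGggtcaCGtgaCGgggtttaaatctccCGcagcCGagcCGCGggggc
Kat2b promoter: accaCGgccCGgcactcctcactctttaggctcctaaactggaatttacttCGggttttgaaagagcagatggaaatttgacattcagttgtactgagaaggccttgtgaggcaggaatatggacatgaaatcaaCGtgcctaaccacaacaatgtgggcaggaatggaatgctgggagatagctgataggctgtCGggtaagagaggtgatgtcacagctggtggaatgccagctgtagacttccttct

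The raw intensities had medians of 126 to 146.9, and 19748 to 20858 probes per array were detected. Markers of hippocampal neurons were all kept (6 of 6), with a list mean between 9.79 and 10.03 on the log2 scale in EtOH and between 9.83 and 10.06 in Control. Ttr, the main product of the choroid plexus, lay between 15.39 and 15.47 on 4 arrays and between 7.92 and 11.57 on the other 8. Each group held 2 of those 4 arrays, but 3 of them were on chip 1. The myelin list (6 of 8 markers kept) had means from 11.75 to 12.31 in EtOH and from 12.02 to 12.40 in Control, and its lowest array was EtOH 3. Lists for neighbouring regions differed more in their means, which are not adjusted for the chip. The neocortex list (3 of 4 kept) averaged 8.46 in EtOH (8.17 to 8.82) and 8.21 in Control (8.06 to 8.46), and the thalamus list (4 of 4) 9.24 (9.00 to 9.55) and 9.10 (8.75 to 9.38). The groups overlapped on both lists, and the part of neighbouring tissue in the results was not tested.

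No histone modifying enzyme passed the test between EtOH and Control hippocampus over all probes. Differences are log2 values of EtOH less Control from a limma model that also holds the chip. On the brightest kept probe of each gene they ran from -0.12 (Kdm6b) to 0.13 (Sirt1), with 23 of 36 genes above 0, against 51.2% of all kept probes, and 13 below. The median over the 36 genes was 0.02, and over the brightest probes of all 10936 named genes it was 0.0043, with 52.2% above 0. With median scaling in place of quantile normalization the split was 30 above and 6 below, and the median of all kept probes moved from 0.0025 to 0.06. In limma 0 of 55 member probes passed an adjusted p of 0.05 in either direction (lowest adjusted p 1.00), as did 0% of all kept probes. At an unadjusted p under 0.05 there were 0 of 55 member probes, against 3.48% of all kept probes. For no member did the groups lie apart, which 0.134% of kept probes did.

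The intervals show how large a difference these arrays leave room for. The half-width of the 95% interval had a median of 0.17 over the 36 genes, from 0.12 for Kmt2e to 0.45 for Hdac8, against a median of 0.19 over all named genes. For 20 of 36 genes the whole interval lay within 0.25 of 0 on the log2 scale, a change by a factor of 1.19 upward or 0.841 downward. The same held for 42.5% of all kept probes and 49.4% of the brightest probes of named genes. The 20 were 2 of 3 acetylases, 6 of 14 deacetylases, 9 of 13 methylases and 3 of 6 demethylases. On these brightest probes of the 36 genes the bounds reached from -0.46 (Hdac8) to 0.45 (Kat2b). Over all 55 kept member probes, 26 intervals lay within 0.25 of 0, and the bounds reached from -0.61 (Kdm5c) to 0.62 (Suz12). Suz12 was among the 20 on its brightest probe only.

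**Figure D1:**
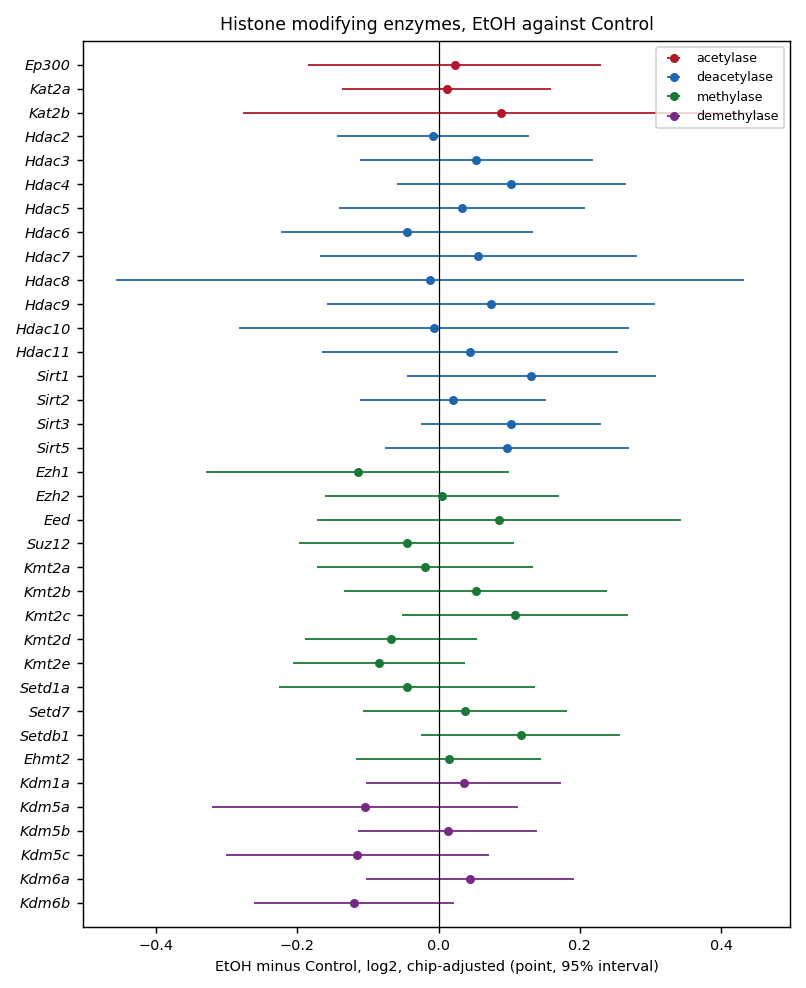
Difference between EtOH and Control for the brightest kept probe of each of 36 genes (log2, adjusted for the chip), as points with 95% intervals, coloured by class. Every interval covers 0; the points run from -0.12 to 0.13, and Kat2b and Hdac8 have the widest intervals.

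Of the acetylases, the paralogous coactivator gene pair Crebbp (CBP) and Ep300 (p300) and the SAGA-type enzymes Kat2a (GCN5) and Kat2b (PCAF), 3 of 4 had a kept probe, and all 3 values lay above 0 with a median of 0.02. Ep300 ran from 9.29 to 9.97 in EtOH, with a median of 9.78, and from 9.27 to 9.94 in Control, with a median of 9.58. The ranges covered each other almost wholly, and EtOH 6, at the bottom of its group, sat beside Control 6. The difference was 0.02 (95% interval -0.18 to 0.23), and the second Ep300 probe gave 0.02 as well. Kat2b ran from 5.63 to 6.36 in EtOH, with a median of 5.80, and from 5.45 to 6.23 in Control, with a median of 5.82. High and low arrays occurred in both groups, with EtOH 2 and Control 2 the highest of theirs. Its difference of 0.09 (-0.28 to 0.45) was set against -0.12 (-0.45 to 0.20) on its second probe, so the probes of Kat2b had opposite signs. Kat2a averaged 8.80 ± 0.09 over 6 EtOH arrays and 8.80 ± 0.10 (SD) over 6 Control arrays, and differed by 0.01 (-0.14 to 0.16).

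Crebbp could not be followed at this sensitivity. Its 3 probes were detected on 5, 3 and 3 of the 12 arrays. Fitted without the filter, their differences were 0.07 (-0.14 to 0.28), -0.21 (-0.43 to 0.0025) and -0.19 (-0.52 to 0.15), at levels between 4.73 and 5.68, close to background. The signs differed between the probes, and none passed in limma (adjusted p 1.00). The lysine 9 methylase gene Ehmt1 (GLP) was as dim, with its 2 probes detected on 1 and 0 arrays. Their differences were 0.06 (-0.19 to 0.32) and 0.18 (-0.05 to 0.42), of the same sign, and neither passed in limma (adjusted p 1.00).

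Among deacetylases 10 of 14 genes (71.4%) lay above 0, against 52.2% of all named genes, and 4 below, with a median of 0.05. Sirt1, a nuclear deacetylase of the NAD-dependent sirtuin family, had the highest value of the 36 genes. It ran from 8.31 to 8.55 in EtOH, with a median of 8.44, and from 8.06 to 8.44 in Control, with a median of 8.32. The groups overlapped, with 5 of 6 EtOH arrays above the median of Control and Control 6 and Control 4 the lowest of the 12. The difference was 0.13 (-0.04 to 0.31), a factor of 1.10, with an adjusted p of 1.00 in limma.

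Sirt3, the mitochondrial deacetylase, ran from 10.96 to 11.34 in EtOH, with a median of 11.03, and from 10.88 to 11.26 in Control, with a median of 11.08. Its difference of 0.10 (-0.03 to 0.23) came with the chip adjustment, since only 2 of 6 EtOH arrays exceeded the median of Control and the value was 0.02 without the chip term. It was 0.10 within chip 1 and 0.11 within chip 2. Sirt5, mainly a mitochondrial desuccinylase, differed by 0.10 (-0.08 to 0.27) and by 0.08 on its other probe. Sirt2, a largely cytoplasmic tubulin deacetylase of oligodendrocytes, differed by 0.02 (-0.11 to 0.15).

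The class I deacetylases, of which Hdac2 and Hdac3 work in nuclear corepressor complexes, had differences between -0.01 and 0.05 on their brightest probes. Hdac2, a brake on memory genes in mice, averaged 11.96 ± 0.09 (SD) over the 6 EtOH arrays and 12.00 ± 0.09 over the 6 Control arrays, and differed by -0.0083 (-0.14 to 0.13). Its dimmer probe gave 0.12. Hdac3, the enzyme of the NCoR and SMRT complexes, differed by 0.05 (-0.11 to 0.22), and Hdac8 by -0.01 (-0.46 to 0.43), with its other probe at 0.18. Hdac8 was dim, at a mean of 5.93 in EtOH, and had the widest interval of the 36 genes.

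Several class II deacetylases move between cytoplasm and nucleus. Hdac4 differed by 0.10 (-0.06 to 0.27), with 6 of 6 EtOH arrays above the median of Control and an adjusted p of 1.00 in limma. Hdac5 differed by 0.03 (-0.14 to 0.21), with 1 of its 3 probes of opposite sign, and Hdac7 by 0.06 (-0.17 to 0.28). The tubulin deacetylase gene Hdac6 differed by -0.05 (-0.22 to 0.13) and Hdac10, which acts on polyamines, by -0.0068 (-0.28 to 0.27). Hdac11, the class IV member, differed by 0.04 (-0.17 to 0.25). Hdac9 differed by 0.07 (-0.16 to 0.31), a value made of 0.32 within chip 1 and -0.17 within chip 2. That gap between chips, -0.49, had the smallest p of the members in the interaction test, and its adjusted p in limma was 0.97.

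Among methylases 7 of 13 genes lay above 0 and 6 below, with a median of 0.0044. Setdb1, which methylates lysine 9 of histone H3 with the KAP1 corepressor, ran from 7.63 to 7.91 in EtOH, with a median of 7.78, and from 7.57 to 7.79 in Control, with a median of 7.70. The groups overlapped, with 5 of 6 EtOH arrays above the median of Control; EtOH 4 and EtOH 6 were the highest of the 12 and EtOH 3 the second lowest. The difference was 0.12 (-0.03 to 0.26), with values of 0.14 within chip 1 and 0.10 within chip 2. Ehmt2 (G9a), the other lysine 9 enzyme with kept probes, differed by 0.01 (-0.12 to 0.15) and 0.05 (-0.09 to 0.19) on its 2 probes.

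Kmt2e (Mll5) ran from 10.39 to 10.59 in EtOH, with a median of 10.46, and from 10.50 to 10.64 in Control, with a median of 10.57. The groups overlapped, although EtOH 6 was the only array of its group above the median of Control. The difference was -0.08 (-0.21 to 0.04), and its second probe gave -0.04. Kmt2e is a SET domain protein for which methylase activity has been disputed.

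The enzymes of lysine 4 methylation did not share a direction. Kmt2c (Mll3), an enhancer methylase, differed by 0.11 (-0.05 to 0.27), and its close relative Kmt2d by -0.07 (-0.19 to 0.05). Kmt2d had the tightest Control group of the 36 genes, 9.69 ± 0.03 (n = 6). Kmt2a, needed for memory formation in mice, differed by -0.02 (-0.17 to 0.13), Kmt2b by 0.05 (-0.13 to 0.24) and Setd1a by -0.04 (-0.23 to 0.14). Setd7, which also methylates proteins other than histones, differed by 0.04 (-0.11 to 0.18).

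Polycomb repressive complex 2 methylates lysine 27 of histone H3 through Ezh1 or Ezh2, held together by Eed and Suz12. Ezh1, the form of mature neurons, differed by -0.11 (-0.33 to 0.10), although its group means were equal at 6.54 before adjustment for the chip. Ezh2, the form of dividing cells, differed by 0.0044 (-0.16 to 0.17). Eed differed by 0.09 (-0.17 to 0.34) and -0.0054 on its 2 probes. Suz12 differed by -0.05 (-0.20 to 0.11) on its bright probe and by 0.25 (-0.12 to 0.62) on a probe detected on 9 of 12 arrays.

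Among demethylases 3 of 6 genes lay above 0 and 3 below, with a median of -0.05. Kdm6b (JMJD3), an inducible demethylase of lysine 27, had the smallest unadjusted p of the 36 genes. It ran from 8.45 to 8.73 in EtOH, with a median of 8.67, and from 8.63 to 9.02 in Control, with a median of 8.82. The groups overlapped, but 6 of 6 EtOH values were under the median of Control. It averaged 8.63 ± 0.11 (SD) over the EtOH arrays and 8.81 ± 0.14 over the Control arrays. The difference was -0.12 (-0.26 to 0.02), a factor of 0.92, with an adjusted p of 1.00 in limma.

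The chip moved with the brightest probe of Kdm6b as well. All chip 1 arrays (8.45 to 8.69) lay below all chip 2 arrays (8.72 to 9.02), and chip 1 held more of the EtOH arrays. The group difference was -0.18 without the chip term, -0.07 within chip 1 and -0.17 within chip 2. The other probes of Kdm6b gave -0.02 and -0.02, so the lower value rested on the brightest of its 3 probes.

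Kdm5c, an X-linked lysine 4 demethylase that escapes X inactivation, ran from 5.68 to 6.03 in EtOH, with a median of 5.85, and from 5.80 to 6.14 in Control, with a median of 6.01. The groups overlapped, and 5 of 6 EtOH values were under the median of Control. Its difference was -0.12 (-0.30 to 0.07), or -0.21 within chip 1 and -0.02 within chip 2. A second Kdm5c probe, detected on only 6 arrays, gave -0.27 (-0.61 to 0.07).

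Its relatives Kdm5a and Kdm5b, which act on the same mark, differed by -0.10 (-0.32 to 0.11) and 0.01 (-0.11 to 0.14), each with another probe of opposite sign. The dimmest of the Kdm5b probes stood at -0.12 (-0.30 to 0.05) between the groups and at 0.25 between the chips. Kdm6a (UTX), the X-linked relative of Kdm6b, differed by 0.04 on both probes, and Kdm1a (LSD1), the flavin-dependent demethylase of the CoREST complex, by 0.04 (-0.10 to 0.17).

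**Figure D2:**
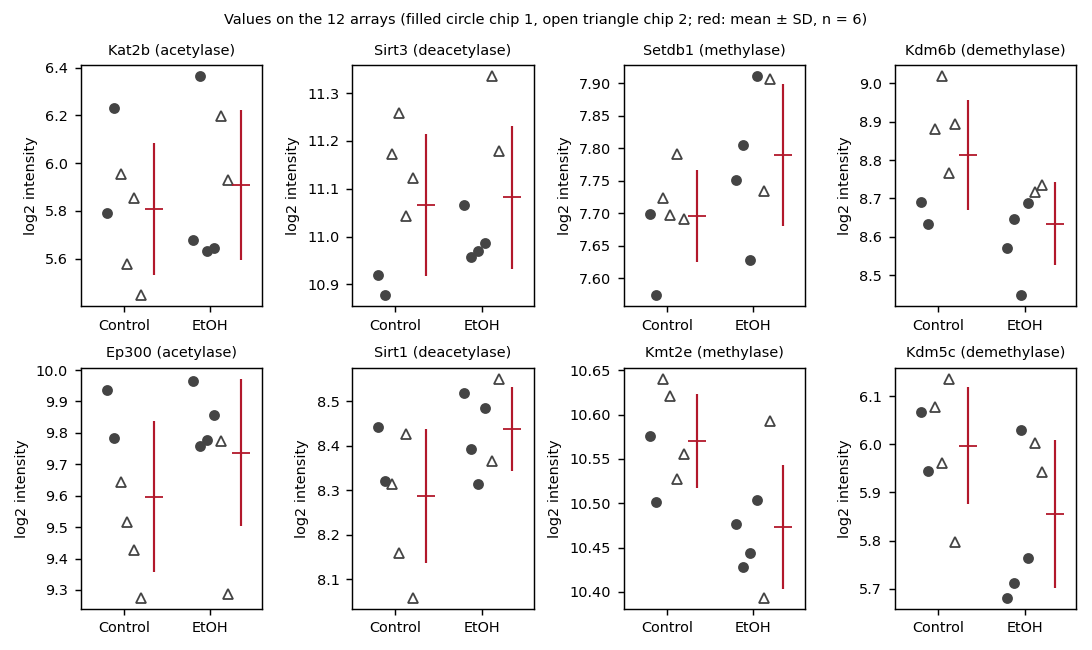
Log2 intensity on each of the 12 arrays for the 2 genes of each class with the smallest p between EtOH and Control, with the mean ± SD of each group (n = 6). The groups overlap in every panel; for Sirt3 and Kdm6b the filled circles of chip 1 lie mostly or wholly below the open triangles of chip 2, and for Ep300 they lie mostly above.

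Several probes of a gene gave a check within the arrays. Of the 36 genes, 16 had 2 or 3 kept probes. In 7 of them all probes had the same sign of the group difference, and in 9 they did not. The share over all genes with several kept probes was not worked out. The 7 were Ep300, Sirt5, Kmt2e, Ehmt2, Kdm5c, Kdm6a and Kdm6b. Within chips, 16 of 36 genes had the same sign on both chips, or 44.4%, against 47.9% of all named genes. By class these were 0 of 3 acetylases, 4 of 14 deacetylases, 7 of 13 methylases and 5 of 6 demethylases. The test of a different group effect on the chips called 0 of 55 member probes and 0% of all kept probes in limma. At an unadjusted p under 0.05 it gave 1 member probe, of Hdac9, against 4.83% of all kept probes.

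The chips separated the members more than the groups did, and the same held for named genes in general. The size of the chip difference had a median of 0.10 over the 36 genes, against 0.05 for the group difference. Over all named genes these medians were 0.09 and 0.05. The chip difference was the larger of the pair in 24 of 36 genes (66.7%, against 64.9% of all named genes). At an unadjusted p under 0.05 the chip term gave 10 of 36 genes and 14 of 55 probes, against 17.3% of all kept probes. None passed the adjusted threshold (lowest adjusted p 0.0663 in limma, Sirt3), which 0.773% of kept probes did.

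Of those 10 genes, 7 had lower values on chip 2 and 3 higher, or 9 lower and 5 higher of the 14 probes. Over all kept probes 6.81% were lower and 10.5% higher at that p, and over the brightest probes of named genes 745 were lower and 1009 higher. The balance of directions was not tested. Ep300 ran from 9.76 to 9.97 on chip 1 and from 9.27 to 9.77 on chip 2, a difference of -0.35 (-0.56 to -0.14), with -0.28 on its second probe. Kdm5a differed by -0.40 (-0.61 to -0.18), with -0.17 on its second probe, and Ezh1 by -0.35 (-0.56 to -0.13). These are a transcriptional coactivator, a lysine 4 demethylase and a lysine 27 methylase, and with Kdm6a at -0.26, Setd1a at -0.20, Suz12 at -0.19 and Kmt2a at -0.19 they spread over 3 of the 4 classes. The second probe of Kdm6a ran from 9.60 to 9.85 on chip 1 and from 9.33 to 9.58 on chip 2, without overlap. It and the brightest Kdm6b probe were the 2 of 55 member probes whose chips lay apart, as did 2.88% of all kept probes. The second probe of Kmt2a differed by 0.27 (0.04 to 0.49) in the other direction.

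The 3 genes with higher values on chip 2 were Hdac10, Sirt3 and Kdm6b. Hdac10 differed by 0.36 (0.08 to 0.63), Sirt3 by 0.26 (0.13 to 0.38) and Kdm6b by 0.18 (0.04 to 0.32). The other probes of Kdm6b gave -0.06 and 0.14 between the chips. Of the 16 genes with several kept probes, 6 had probes with opposite signs of the chip difference. For Sirt3 all 6 chip 2 arrays lay above the chip 1 median. Above 0 for chip 2 lay 1 of 3 acetylases, 12 of 14 deacetylases, 5 of 13 methylases and 4 of 6 demethylases, 22 of 36 genes in all, against 50.5% of all kept probes. The classes were not tested against each other. Sirt3 passed the threshold without background correction (adjusted p = 0.0212 in limma), with median scaling (0.0457), with an offset of 50 (0.0466), with the stricter detection filter (0.0388), in the deposited normalized values (0.0211) and with a trended, robust variance (0.0159). Ep300 and Kdm6a passed too without background correction, in the deposited normalized values and with the trended variance, so that 3 of 55 member probes (5.45%) were called there, against 2.13% to 2.34% of all kept probes. Sirt3 alone, 1 of 55 (1.82%), was called with median scaling, against 2.7% of all kept probes, and with the offset of 50, against 1.32%. It was 1 of 46 (2.17%) with the stricter filter, against 2.2%. Without a filter on detection 0 of 86 member probes were called, against 0.0905% of all probes. Nor was any member probe called with 1 array left out. Median scaling moved the chip difference of the median probe from 0.0017 to 0.12, and Sirt3 stood at 0.40 there.

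**Figure D3:**
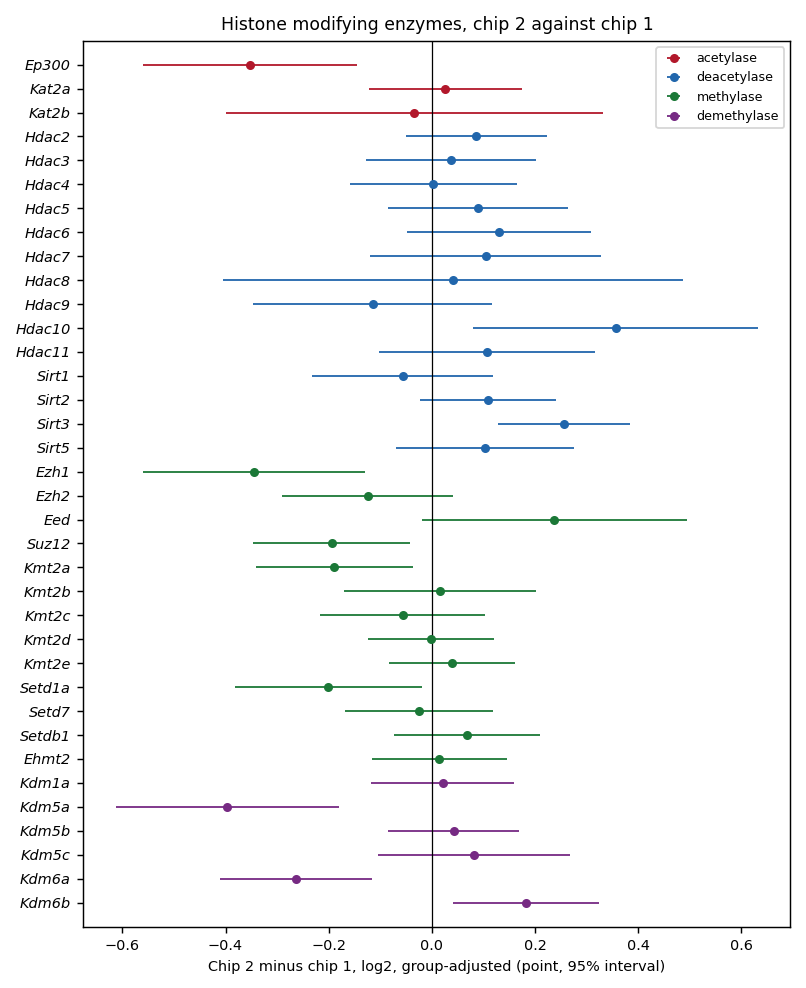
Difference between chip 2 and chip 1 for the brightest kept probe of each of 36 genes (log2, adjusted for the group), as points with 95% intervals, coloured by class. Ep300, Kdm5a, Ezh1 and Kdm6a lie to the left of 0 and Sirt3 and Hdac10 to the right; most other intervals cover 0.

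**Figure D4:**
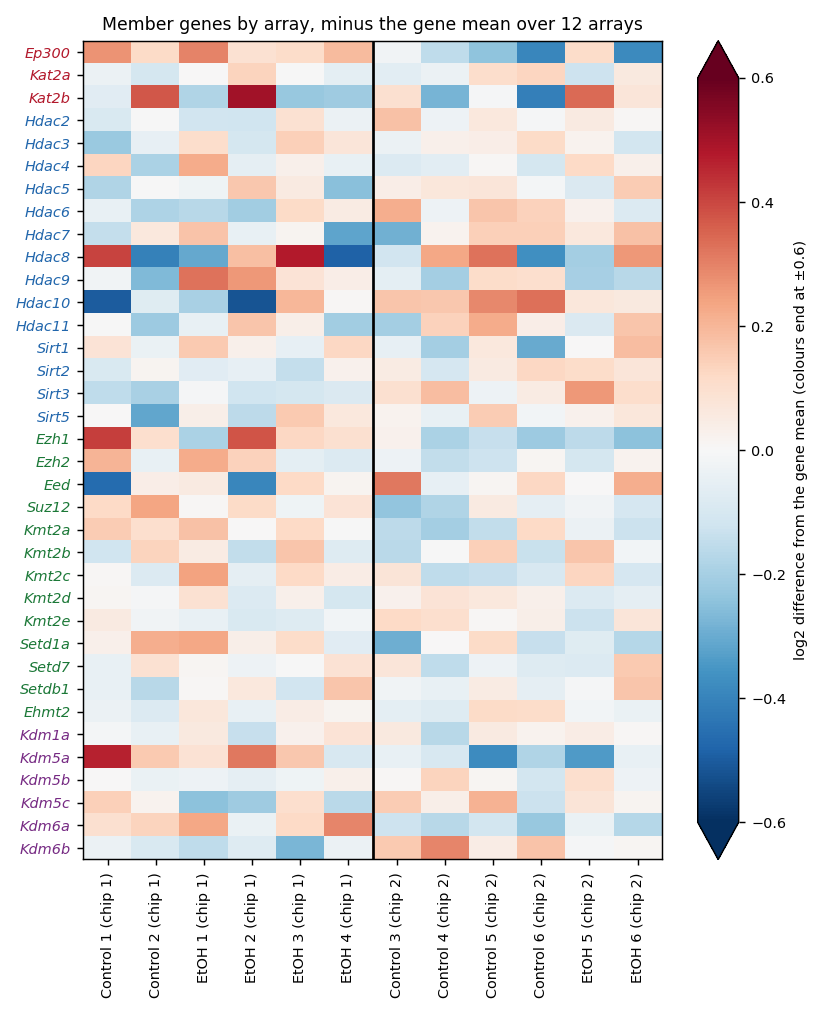
Log2 value of the brightest kept probe of 36 genes on each array minus that gene's mean over the 12 arrays; gene names carry the class colours, and the black line parts chip 1 from chip 2. Deviations run from -0.52 to 0.51; Ep300, Kdm5a and Kdm6a are mostly red on chip 1 and mostly blue on chip 2, and Kat2b and Hdac8 vary from array to array.

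Myelin transcripts on each array were followed through the mean of the myelin list. That mean was lowest on EtOH 3, at 11.75, with the next at 12.02 (Control 4) and the highest at 12.40 (Control 2). The slope of each probe on that mean, fitted in limma with chip and group, passed for 0 of 55 member probes and 0% of all kept probes. At an unadjusted p under 0.05 it gave 2 member probes, against 6% of all kept probes, and both belonged to Kat2b. The slopes of Kat2b were 1.22 (95% interval 0.48 to 1.97) and 0.99 log2 units per log2 unit of the myelin mean, with an adjusted p of 0.559 for the first. Sirt2, whose protein is abundant in myelin, had a slope of 0.25 (-0.11 to 0.60) and Hdac11 one of -0.25 (-0.85 to 0.36).

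Other genes of histone modification were looked at beside the members, from a list of acetylases, methylases, demethylases and subunits of their complexes. Of 63 listed, 57 were matched and 54 had a kept probe. In limma 0 of 54 passed, with 26 above 0, 28 below and a median difference of -0.0014. At an unadjusted p under 0.05 there was 1, against 3.48% of all kept probes. It was Rbbp7, a histone-binding subunit shared by deacetylase complexes and Polycomb repressive complex 2, with a difference of -0.20 (-0.36 to -0.04) and an adjusted p of 1.00 in limma.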

How the data were processed

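Each of 45281 probes has, per the file headers, a linear, non-normalized intensity on 12 single-colour bead arrays, and the authors deposited a detection p-value beside each intensity. The submitters' processing notes give GenomeStudio 1.9.0; the probes' genome build is not given in the sources used here, and no probe positions are used. A second deposited table of intensities ranks probes like the matching array, with medians from 135.6 to 135.7, so it appears quantile-normalized; it served as an alternative.

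Intensities were background-corrected and quantile-normalized by neqc with an offset of 16 (limma 3.58.1, R 4.3.3). Gene names came from the platform annotation, with 1 gene for 34885 probes, several for 18 and none for 10378. All 20172 kept probes were fitted with lmFit and eBayes on group and chip, two-sided, with Benjamini-Hochberg adjustment over all of them and a threshold of 0.05. Group means are not adjusted for the chip. Each gene is represented by its brightest kept probe. Every member is named; array values are described for the 2 genes of each class with the smallest p between EtOH and Control. Members, lists and tests were chosen with earlier results of these data known. The number of arrays limits the precision. Data for EtOH against Control were simulated with 20172 probes, 200 of them changed, and independent noise. There 58.7% of changes of 0.50 on the log2 scale were recovered, 94.9% of changes of 1 and 0.05% of changes of 0.25. For a different group effect on the chips, 0% of changes of 0.50 and 58.45% of changes of 1 were recovered. For the myelin slope, 0% of slopes of 0.50 and 20.2% of slopes of 1 were recovered. Recovery with fewer changed probes, or with noise shared between probes, was not simulated. Alternatives changed background correction, normalization, filter, probe choice, variance model, chip term, the replicate number as a block, arrays with choroid plexus transcripts, a myelin covariate and each array in turn.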

Additional observations from a re-analysis of the deposited data

Results flagged for a closer look

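Of 110 sets of 6 arrays examined (each kept member probe in each group), 5 held an array far from the others, and about 5.5 (1 in 20) would arise by chance if the sets were independent. Each ratio divides the distance to the closest other array by the group's whole range. EtOH 2 had the lowest value of Eed on both probes (6.74 against 7.14 for the nearest, ratio 0.644, and 6.25 against 6.73, ratio 0.724) and the lowest Kdm1a (10.49, ratio 0.657). EtOH 6 had the lowest Ep300 (9.29 against 9.76, ratio 0.696). Control 1 had the lowest Hdac5 (10.54, ratio 0.674).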

How the results depend on the processing

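Member probes past the threshold for EtOH against Control numbered 0 in limma under all 27 alternatives (lowest adjusted p 0.985), with 0 to 2 of them at an unadjusted p under 0.05. The other histone modification genes (27 alternatives), the difference of the group effect between chips and the myelin slope also gave 0 in each alternative in which they were fitted. Of 36 genes, 10 kept their sign under every alternative run, and 97 of 969 values changed sign. Ep300 turned to -0.0201 within chip 1 and Kat2b to -0.18 within chip 1 and -0.0169 with the mean of its probes; with 1 array left out Ep300 ran from -0.0795 (without EtOH 5; -0.00972 without Control 6) to 0.103 and Kat2b from -0.0295 (without EtOH 5) to 0.238. Member probes called for the chip were 3 without background correction, 3 in the deposited normalized values and 3 with a trended, robust variance. There 2.13%, 2.13% and 2.34% of all probes tested were called. With an offset of 50, median scaling and the stricter detection filter it was 1 each, where 1.32%, 2.7% and 2.2% were called. Without a filter on detection 0 of 86 member probes were called, against 0.0905% of all probes, and 0 with each array left out in turn. The demethylase median of -0.05 came to 0.0158 with median scaling, 0.0126 with the stricter filter, 0.00241 with probe means, 0.0132 without the chip term and 0.00365 within chip 2; the methylase median was 0.0523 with median scaling. Median scaling gave 408 higher and 162 lower kept probes at an unadjusted p under 0.05 (71.6% higher, against 50.4%). For these shifts the cause was not tested. Without the 4 arrays rich in Ttr, Kdm6b stood at -0.14. Replicate numbers were not taken as pairs in the main fit, and whether they mark pairs was not tested. Deviations of same-numbered arrays correlated above 0.1 in 5 of 6 pairs before the chip was fitted and in 3 of 6 after it. With the replicate number as a block 0 member probes were called, with Kdm6b at -0.08. Near background, as for Crebbp and Ehmt1, and at the dim probes of Hdac8, Kat2b and Kdm5c, low signal limits what can be seen. Without background correction the difference of Kat2b was 0.03 and that of Kdm5c -0.04.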
